A study of Mus musculus with 5 samples.

Results

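The genes described here are the major histocompatibility complex (MHC) genes of the mouse, taken as the protein-coding genes of chromosome 17 whose symbol starts with H2- in a RefSeq table of build GRCm38.p6 (mm10). There were 38 such genes. Of these, 35 had a position on the chromosome 17 sequence and were among the 21589 protein-coding genes placed on the 19 autosomes and X: 9 class II genes, 25 class I genes and H2-Ke6, a steroid dehydrogenase gene that carries the prefix but belongs to neither class. The other members, H2-Q8, H2-Q9 and H2-T18, are class I genes listed on separate sequences, and they were not analysed here.

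Chromatin was prepared from control mice 71 days after birth that carried the reporters K14-RFP, driven by a basal keratin promoter, and K10-H2B-GFP, driven by a suprabasal one. Back skin cells that were Sca1(+), RFP(high) and GFP(-) were sorted as basal epidermal progenitors. There were 2 libraries for H2AK119ub, the histone H2A ubiquitination made by Polycomb repressive complex 1, 2 libraries for H3K27me3, the histone H3 methylation made by Polycomb repressive complex 2, and 1 input library. Each mark has 1 list of called regions, which gives positions and no height, score or replicate. Read depth and the spread between libraries are therefore unknown, no test between groups was possible, and a gene outside both lists may carry either mark below the unknown calling threshold. The labels do not name the strain of the mice. MHC sequences differ between inbred strains, and whether this affected the calls was not tested.

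MHC class I molecules pair with beta-2 microglobulin and show peptides made inside the cell to CD8 T cells and natural killer cells. The classical class I genes are expressed by nearly all nucleated cells, while many of the nonclassical genes of the Q, T and M series are restricted to particular tissues. MHC class II molecules are alpha and beta chain pairs that show peptides from engulfed protein to CD4 T cells. In the epidermis they are characteristic of Langerhans cells, and keratinocytes make them when exposed to interferon gamma, through the coactivator Ciita. Polycomb complexes keep genes silent outside their lineage, and H3K27me3 is the mark most often read as Polycomb silencing.

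All but 1 of the class II genes had both marks, and most class I genes had neither. A gene was counted as marked when a region lay within 1 kb of either annotated end. Of the 9 class II genes, 8 had H2AK119ub (88.9%, exact 95% Clopper-Pearson interval 51.8 to 99.7%) and 8 had H3K27me3, against 57.2% and 24.7% of all protein-coding genes. On chromosome 17 these shares were 59.8% and 19.2%. The same 8 genes had both marks, a state found at 21.1% of protein-coding genes. Of the 25 class I genes, 8 had H2AK119ub (32%, 14.9 to 53.5%) and 7 had H3K27me3 (28%, 12.1 to 49.4%). Both marks were at 7 class I genes, H2AK119ub alone at 1 and neither at 17, and neither mark was found at 39.2% of protein-coding genes (40.1% of autosomal ones).

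Within class I the counts varied by series. H2AK119ub was at 6 of the 8 K, D and Q genes, at 1 of 5 T genes and at 1 of 12 M genes. H3K27me3 was at 5, 1 and 1 of these. The intervals of the K, D and Q genes (34.9 to 96.8% for H2AK119ub and 24.5 to 91.5% for H3K27me3) overlapped those of class II. For H2AK119ub the interval of class I as a whole, up to 53.5%, also overlapped that of class II, from 51.8%. Overlap of intervals made for each group alone neither shows nor excludes a difference between the groups. The class II share of H2AK119ub exceeded the class I share by 56.9 percentage points, and by 35.0 without the M genes. For H3K27me3 the difference was 60.9 points, and 42.7 without the M genes. Intervals cover counting only: neighbouring genes share regions, so genes are not independent, and no test of the classes was made. Counting genes that share a region once left 5 of 6 class II loci marked for each mark, against 7 of 24 class I loci for H2AK119ub and 6 of 24 for H3K27me3.

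**Figure D1:**
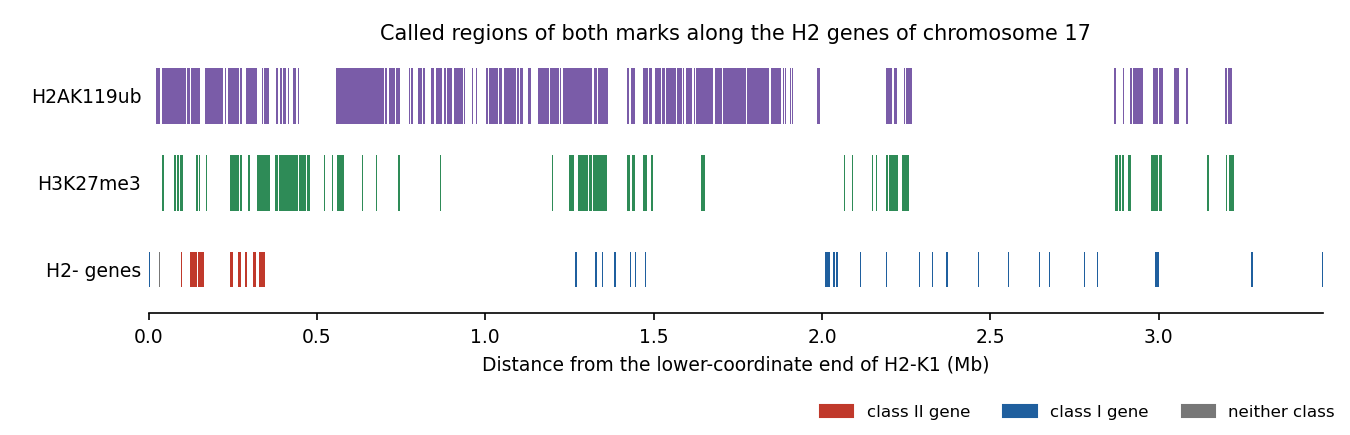
Called H2AK119ub regions (purple) and H3K27me3 regions (green) and the 35 placed H2- genes (red, class II; blue, class I; grey, neither class) along chromosome 17, as distance in Mb from the lower-coordinate end of H2-K1. The class II genes lie among regions of both marks, and the run of M genes from H2-M10.2 to H2-M10.6 lies in a stretch of 601 kb with no region of either mark.

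From H2-K1 to H2-M2 the genes span 3488 kb. H2AK119ub covered 41.0% of this span and H3K27me3 15.6%, against 20.2% and 5.80% of chromosome 17. Coverage was uneven. The class II block from H2-Oa to H2-Eb2 (249 kb) was covered to 73.2% by H2AK119ub and 32.2% by H3K27me3. The block of D and Q genes (211 kb) was covered to 56.2% and 49.9%, the highest H3K27me3 coverage of the blocks measured. The T block (187 kb) fell to 5.96% and 8.20%, and the M block (1199 kb) to 9.25% and 6.64%. Between H2-Q10 and H2-T24 lie 529 kb without H2- genes, where H2AK119ub covered 69.7% and H3K27me3 4.20%. High H2AK119ub coverage thus did not always come with H3K27me3 in this part of the chromosome. In the other direction the marks met often. Of the 57 H3K27me3 regions of the locus, 50 (87.7%) overlapped H2AK119ub by 1 bp or more, against 71.3% on the autosomes. Of its H2AK119ub regions, 54 (45.4%) met H3K27me3, against 27.2%. H2AK119ub and H3K27me3 covered less of the autosomes, 17.8% and 6.2%, than of the locus. Whether the marks met more often than their coverage alone would give was not tested.

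The antigen-presenting chains of class II come first. H2-Aa and H2-Ab1 encode the alpha and beta chains of the I-A molecule, and H2-Eb1 encodes the beta chain of I-E. H2-Ab1 (chr17:34263227-34269418) lay in both lists. An H2AK119ub region of 32.6 kb and one of H3K27me3 of 21.6 kb reached into it from the neighbouring H2-Ob and ended 104 bp apart inside the gene. Both lists then had a gap, of 1.75 kb in H2AK119ub and 1.53 kb in H3K27me3, and both resumed before the far end. As a result 71.8% of H2-Ab1 was inside H2AK119ub regions and 71.9% inside H3K27me3 regions.

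H2-Aa (chr17:34282744-34287823, minus strand) was covered to 78.2% by H2AK119ub and to 0% by H3K27me3. It counted as having H3K27me3 only through a 0.901 kb region that stops 0.409 kb beyond its 3' end. The next H3K27me3 region lay 3.02 kb upstream of its start. H2-Eb1 (chr17:34305867-34316674, plus strand) was wholly inside an 11.6 kb H2AK119ub region and also held no H3K27me3. The nearest H3K27me3 region began 0.875 kb past its 3' end and ran for 40.5 kb. That region covered all of the next gene, H2-Eb2 (chr17:34325503-34341410), of which 39.2% was inside H2AK119ub regions. Within 1 kb of the genes, H2-Aa and H2-Eb1 thus had H2AK119ub over the start and H3K27me3 only beyond the 3' end. In the same range, H2-Eb2 had H3K27me3 over the start and H2AK119ub only further along.

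The genes for the accessory molecules were also mixed. H2-DM, made from H2-DMa and either H2-DMb1 or H2-DMb2, loads peptides onto class II molecules, and H2-DO, made from H2-Oa and H2-Ob, restrains it. H2-Oa (chr17:34092379-34095234) was wholly inside 57.1 kb of H2AK119ub and 10 kb of H3K27me3. H2-Ob (chr17:34238905-34245908) was wholly inside the 32.6 kb H2AK119ub region it shares with H2-Ab1 and was covered to 81.3% by H3K27me3, with a gap of 1.31 kb. The genes of the restraining molecule were thus the pair with both marks over the annotated start and at least 81.3% of the gene.

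H2-DMa (chr17:34119693-34139101) and H2-DMb2 (chr17:34143229-34151553) shared an H2AK119ub region of 22.5 kb and an H3K27me3 region of 5.85 kb. The latter covered the 3' end of H2-DMa and stopped within 1 kb of H2-DMb2, which held a further H3K27me3 region. H3K27me3 covered 11.7% of H2-DMa and 43.6% of H2-DMb2. The lower end of H2-DMa overlaps Brd2, a bromodomain gene, so its marks there cannot be assigned to one gene. H2-DMb1 (chr17:34153191-34160229) was the class II gene without a region of either mark. The nearest H2AK119ub region was 3.71 kb away and the nearest H3K27me3 region 4.62 kb away. H2-DMb1 and H2-DMb2, closely related neighbours that encode alternative beta chains of one molecule, therefore differed in both lists. How reads that match both genes were placed is not stated, and its part in the difference was not tested.

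**Figure D2:**
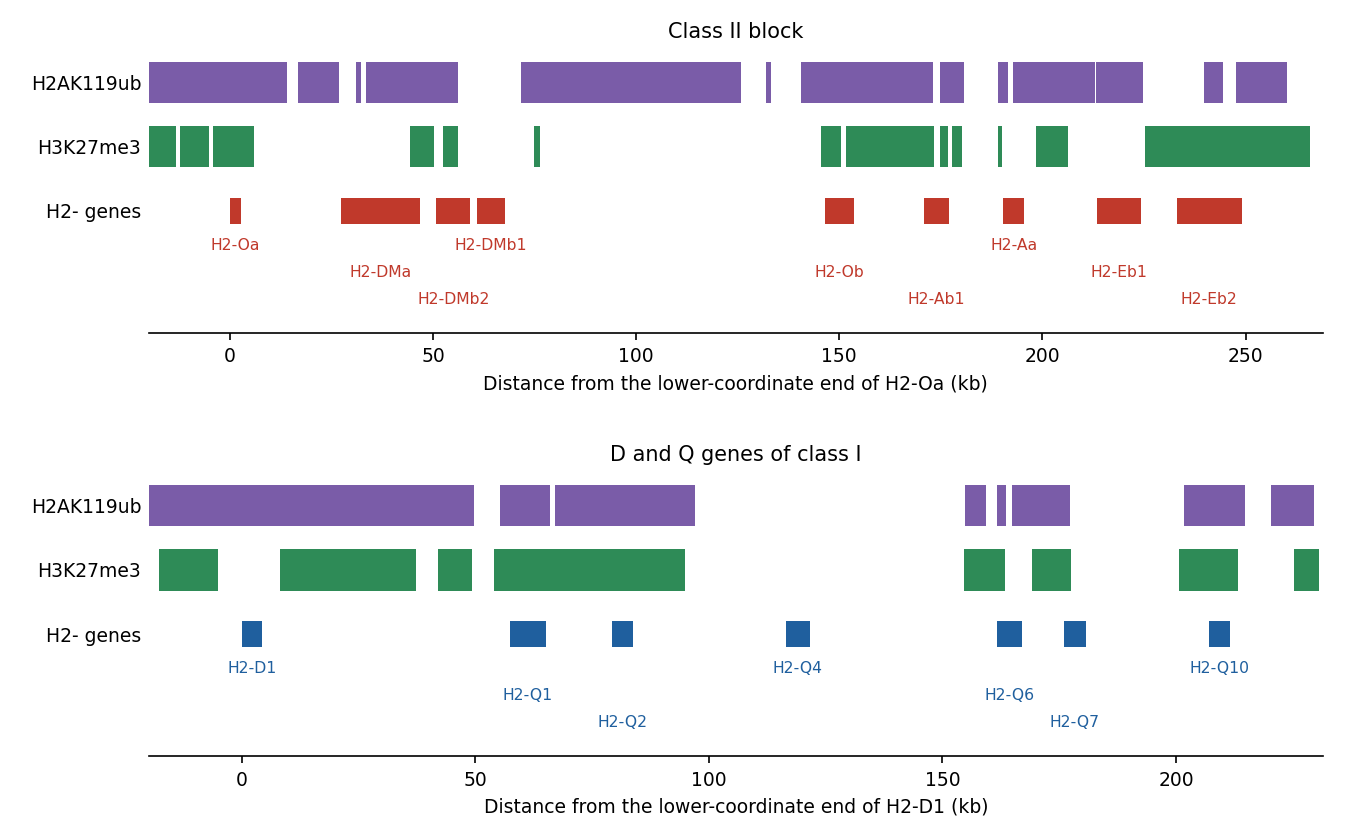
Regions of H2AK119ub (purple) and H3K27me3 (green) over the class II block (top, distance in kb from the lower-coordinate end of H2-Oa) and over the D and Q genes of class I (bottom, distance in kb from the lower-coordinate end of H2-D1), with 20 kb on either side. H2-Eb1 and H2-D1 lie inside H2AK119ub regions and in gaps of H3K27me3, and H2-DMb1 and H2-Q4 lie in gaps of both lists.

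How many class II genes had H3K27me3 depended on what was counted. All 8 marked genes had a region within 1 kb of an end, but an H3K27me3 region covered an end itself at 5 and lay near both ends at 4. H2-DMb2, H2-Aa and H2-Eb1 dropped out when the end itself had to be covered. Annotated starts were available for 8 class II genes, all but H2-Ab1. H3K27me3 lay within 1 kb of the start at 4 of them, H2-Oa, H2-DMb2, H2-Ob and H2-Eb2, against 21.6% of all protein-coding genes with a start. H2AK119ub lay there at 6 of 8, against 50.9%. Of 23 class I genes with a start, 7 had H2AK119ub and 6 had H3K27me3 there.

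**Figure D3:**
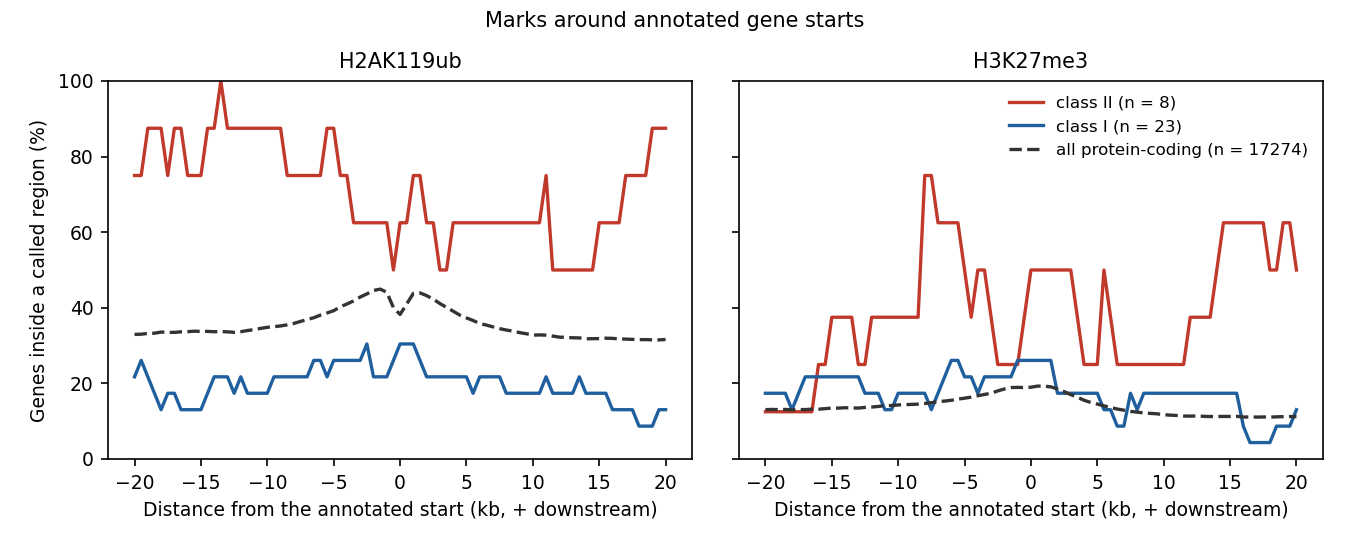
Share of genes (%) whose annotated start, or a point up to 20 kb before or after it, lies inside a called region, for 8 class II genes (red), 23 class I genes (blue) and 17274 protein-coding genes (dashed). At the start itself H2AK119ub covered 5 class II and 7 class I genes and H3K27me3 covered 4 and 6, and each class II gene shifts its line by 12.5 percentage points.

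The 250 bases before the start are shown for 5 class II genes that span these states: H2-DMb1, with neither mark, H2-Ob, with both marks over this stretch, H2-Aa and H2-Eb1, with H2AK119ub alone, and H2-Eb2, with H3K27me3 alone. They come from RefSeq, build GRCm38.p6, and are written 5' to 3' along the gene. Capitals mark the Y box, ATTGG or its reverse complement CCAAT, and upstream of it the X box in H2-DMb1 and a variant of the X box in H2-Ob, H2-Eb1 and H2-Eb2. These boxes belong to the conserved promoter module through which Ciita acts. In the order printed they lie at chr17:34152941-34153190 (plus), chr17:34238655-34238904 (plus), chr17:34287824-34288073 (minus), chr17:34305617-34305866 (plus) and chr17:34325425-34325674 (plus).
H2-DMb1: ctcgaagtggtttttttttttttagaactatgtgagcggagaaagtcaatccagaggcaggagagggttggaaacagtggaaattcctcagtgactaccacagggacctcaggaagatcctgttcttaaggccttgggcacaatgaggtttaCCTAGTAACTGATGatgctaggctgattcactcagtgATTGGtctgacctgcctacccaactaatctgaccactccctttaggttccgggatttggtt
H2-Ob: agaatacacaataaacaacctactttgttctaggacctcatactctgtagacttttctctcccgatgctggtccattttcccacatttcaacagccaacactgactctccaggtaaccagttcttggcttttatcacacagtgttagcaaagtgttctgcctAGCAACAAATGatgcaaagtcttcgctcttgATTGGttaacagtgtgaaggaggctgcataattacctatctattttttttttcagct
H2-Aa: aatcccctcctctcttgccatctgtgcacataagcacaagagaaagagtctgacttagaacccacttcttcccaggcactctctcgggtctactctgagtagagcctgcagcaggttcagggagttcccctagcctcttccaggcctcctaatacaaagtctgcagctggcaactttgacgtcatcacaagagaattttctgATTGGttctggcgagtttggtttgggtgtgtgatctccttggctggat
H2-Eb1: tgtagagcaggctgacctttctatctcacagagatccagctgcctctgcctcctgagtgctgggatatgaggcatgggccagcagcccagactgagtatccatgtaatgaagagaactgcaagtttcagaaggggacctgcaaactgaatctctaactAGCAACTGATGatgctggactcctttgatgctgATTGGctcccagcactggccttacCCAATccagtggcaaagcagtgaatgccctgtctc
H2-Eb2: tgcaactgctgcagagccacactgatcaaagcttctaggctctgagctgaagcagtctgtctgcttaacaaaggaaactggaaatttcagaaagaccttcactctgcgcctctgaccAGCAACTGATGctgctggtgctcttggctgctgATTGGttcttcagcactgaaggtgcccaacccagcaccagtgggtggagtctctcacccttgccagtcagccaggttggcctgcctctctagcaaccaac

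Motifs were sought on both strands in windows of 250 bases before to 50 after the start, using the first listed start of each gene. The Y box was found at 7 of 8 class II genes and at 20 of 23 class I genes, against 39.4% of 17274 protein-coding genes. The class II gene without it, H2-DMa, had a Y box before its other listed start. The pattern searched for the X box, matched exactly, was found at H2-DMb1 alone among the members and at 3 protein-coding genes in all. Sequences that depart from this pattern were not counted, so a gene without a match may still hold an X box. H2-DMb2 has a near match upstream of its Y box. The X box variant, the run in capitals shared by H2-Eb1 and H2-Eb2 with any base at 2 places, was chosen after the sequences were seen. It was found at 0.208% of protein-coding genes, and among the members at H2-Ob, H2-Eb1 and H2-Eb2. In each of these it lay upstream of a Y box, and the 3 genes had 3 different states of the marks at the start. The gamma activated site TTCNNNGAA was found at 1 class II gene, H2-DMb2, and at 2 class I genes, H2-M11 and H2-M3, against 7.92% of protein-coding genes. A fixed pattern of the interferon response element was found at no class II gene and at 2 class I genes, H2-T23 and H2-T22. The share of protein-coding genes with this pattern was 3.43%. Sequences that depart from the pattern were not counted, so a gene without a match may still hold the element. CpG dinucleotides, the sequence around which Polycomb regions are often found in mammals, were few in class II and in class I as a whole. H2-DMa had 29 in the window of its first listed start and 0 in that of its other listed start. The median by first listed start was 3 per window in class II and 4 in class I. It was 14 in all protein-coding genes and 14 in those with H3K27me3 at the start. Within class I it was 12 in the K, D and Q genes and 2 in the M genes. The 10 members with H3K27me3 at the start had a median of 3.5, and the 22 without had a median of 3.

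In class I, the classical genes H2-K1 and H2-D1 were both without H3K27me3. H2-K1 (chr17:33996012-34000619, minus strand) had neither mark, with the nearest H2AK119ub region 6.35 kb away and the nearest H3K27me3 region 15.2 kb away. H2-D1 (chr17:35263094-35267497, plus strand) was wholly inside a 69.9 kb H2AK119ub region. Within that region the H3K27me3 list left a gap around the gene, ending 5.03 kb before it and resuming 3.70 kb after it. The classical genes were therefore alike in lacking H3K27me3, as do most protein-coding genes, of which 24.7% had it at an end. They were unlike in H2AK119ub.

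The Q genes next to H2-D1 encode nonclassical molecules. H2-Q1 and H2-Q2 were wholly inside a 40.9 kb H3K27me3 region and wholly inside H2AK119ub regions of 10.7 and 29.9 kb. H2-Q10, whose product is secreted, lay wholly inside 13.1 kb of H2AK119ub and 12.6 kb of H3K27me3. H2-Q6 and H2-Q7, which belong to the genes for the Qa-2 antigen, had both marks over part of their length. H2-Q6 was covered to 71.9% by H2AK119ub and 31.0% by H3K27me3, and H2-Q7 to 27.3% and 33.4%. H2-Q4 had neither mark and stood in an unmarked stretch of 57.8 kb between the marked genes H2-Q2 and H2-Q6. Of the 6 Q genes, 5 thus had both marks.

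The bases before the start are shown for H2-K1, H2-D1 and H2-Q6, which share the kappa B sequence of class I promoters and differ in their marks. The first run of capitals marks it, and the others mark the Y box. By the first listed start, the kappa B sequence was found at 6 of the 17274 protein-coding genes (0.0347%), and among the members only at these 3. H2-K1 lay outside both lists over this stretch (chr17:34000348-34000597, minus strand), H2-D1 (chr17:35262844-35263093, plus) was in the H2AK119ub list alone and H2-Q6 (chr17:35424600-35424849, plus) was in both, with H2AK119ub over part of it.
H2-K1: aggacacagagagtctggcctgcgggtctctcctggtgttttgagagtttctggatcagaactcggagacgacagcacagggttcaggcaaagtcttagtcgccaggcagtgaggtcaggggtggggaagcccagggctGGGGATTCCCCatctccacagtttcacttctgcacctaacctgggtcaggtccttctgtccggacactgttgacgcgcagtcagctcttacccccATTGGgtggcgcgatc
H2-D1: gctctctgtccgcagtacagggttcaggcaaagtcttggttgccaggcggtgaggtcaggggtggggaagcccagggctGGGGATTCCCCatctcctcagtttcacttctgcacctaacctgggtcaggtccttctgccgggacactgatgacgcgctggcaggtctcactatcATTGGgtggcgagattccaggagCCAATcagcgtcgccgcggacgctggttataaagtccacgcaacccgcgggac
H2-Q6: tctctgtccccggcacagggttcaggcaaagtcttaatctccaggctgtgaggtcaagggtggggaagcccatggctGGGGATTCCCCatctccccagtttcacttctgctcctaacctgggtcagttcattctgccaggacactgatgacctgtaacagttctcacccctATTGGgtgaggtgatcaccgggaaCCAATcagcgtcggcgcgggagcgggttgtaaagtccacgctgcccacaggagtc

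The T genes were unmarked except for H2-T3. H2-T3, which encodes the thymus leukaemia antigen, lay wholly inside an H2AK119ub region of 6.16 kb and an H3K27me3 region of 6.42 kb whose boundaries differed by 169 bp at one side and 87 bp at the other. H2-T24, H2-T23 and H2-T22 stood together in an unmarked stretch of 71.0 kb. H2-T23 encodes Qa-1, a ligand of natural killer cell receptors, and its nearest region of either mark was 28.2 kb away. H2-T-ps, a gene named as a pseudogene but listed as protein-coding, was 20.5 kb from the nearest region.

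By count of genes, the M series had the lowest share with either mark, 1 of 12, although H2AK119ub coverage was lower in the T block. The 9 genes H2-M10.2, H2-M10.1, H2-M10.3, H2-M10.4, H2-M11, H2-M9, H2-M1, H2-M10.5 and H2-M10.6 lay in 1 stretch of 601 kb without a region of either mark. Several of these genes are known for expression in sensory neurons of the vomeronasal organ. H2-M11 was 285 kb from the nearest H2AK119ub region. Of 32276 stretches between regions on the autosomes, 568 (1.76%) were as long. H2-M3, which presents formylated peptides, and H2-M2 lay in a longer stretch of 2621 kb with 48 other protein-coding genes, mostly olfactory receptor genes. Of the autosomal stretches, 86 (0.266%) were as long. These shares count stretches and not bases, and the share of autosomal bases inside such long stretches is larger. H2-M5 (chr17:36983785-36997955) was the exception, with H2AK119ub over 63.1% and H3K27me3 over 72.7% of the gene. How well single reads could be placed in the unmarked stretches was not tested. Within the promoter table, 2 of the 23 class I windows, those of H2-T23 and H2-T-ps, held a run of 75 bases found at another position, against 6.53% of protein-coding genes. Genes on separate sequences such as H2-Q8 and H2-Q9 were not in that comparison.

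**Figure D4:**
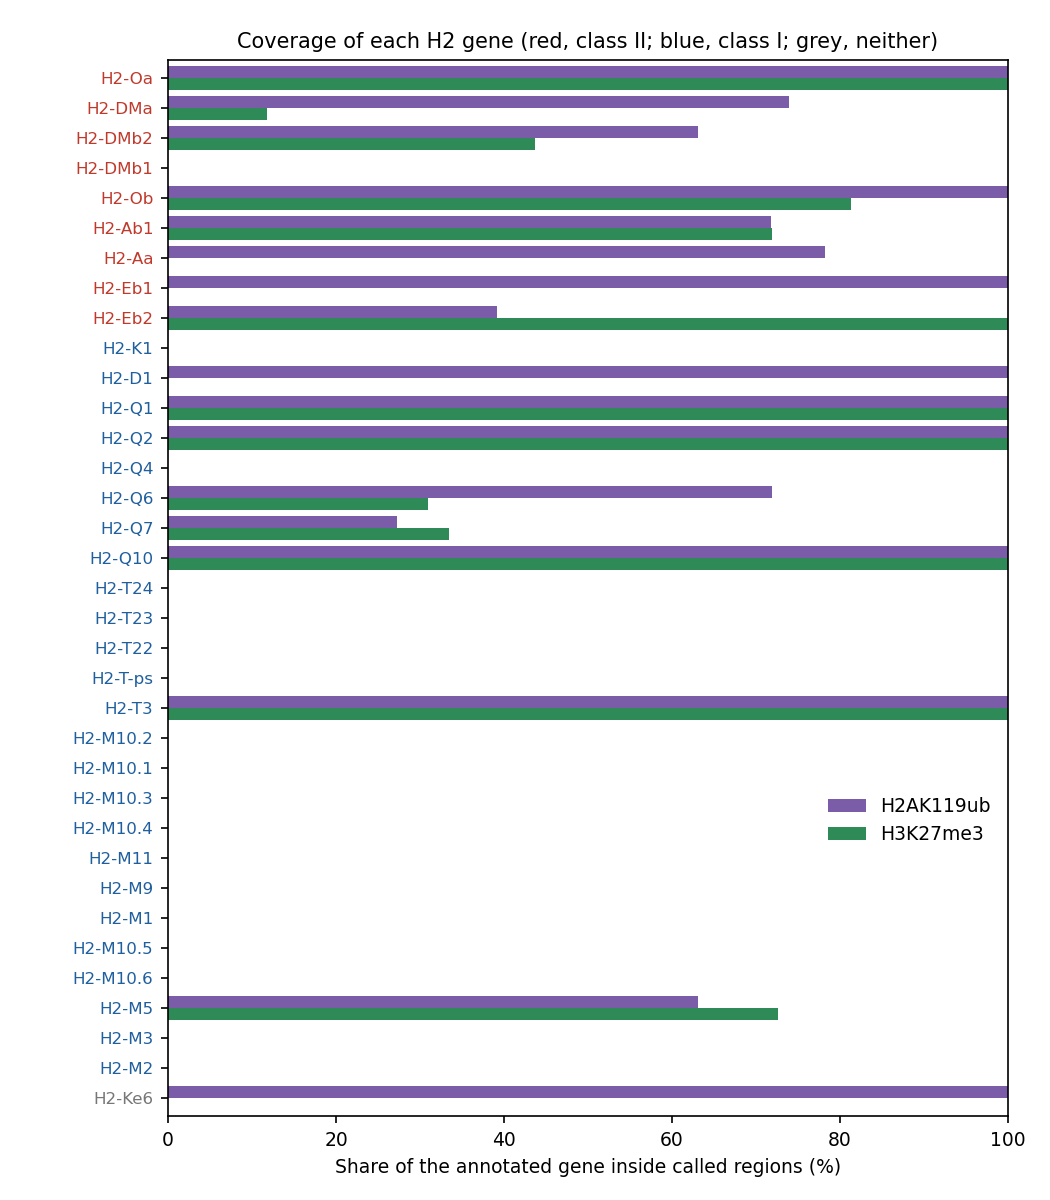
Share of each annotated H2- gene (%) inside called H2AK119ub regions (purple bars) and H3K27me3 regions (green bars), with class II genes first (red), then class I genes (blue) and H2-Ke6 (grey), each in order along the chromosome. H2-Aa, H2-Eb1, H2-D1 and H2-Ke6 have a purple bar and no green bar, and H2-DMb1, H2-K1, H2-Q4, 4 T genes and 11 M genes have none.

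Across the gene body, the median class II gene was inside H2AK119ub regions for 74.0% of its length and inside H3K27me3 regions for 43.6%. The medians were 8.86% and 0% over all protein-coding genes, and 0% for both marks over the class I genes. Within class I, the medians of the K, D and Q genes were 86.0% and 32.2%, and those of the T and M genes were 0% for both marks. Counting any region inside a gene or within 1 kb of it left the members' counts as they were, at 8 of 9 class II genes for each mark and 8 and 7 of 25 class I genes, against 60.7% of all protein-coding genes for H2AK119ub and 27.4% for H3K27me3. The members were short, with a median length of 4.47 kb against 17.3 kb for all protein-coding genes. Among the 9030 protein-coding genes within the members' range of lengths, 62.0% had H2AK119ub and 24.04% had H3K27me3 at an end, close to the shares over all genes. H2-Ke6 was wholly inside an 11.4 kb H2AK119ub region and 8.73 kb from the nearest H3K27me3 region.

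Other genes of antigen presentation were mostly in the H2AK119ub list alone or in neither list. Of 15 genes for the loading of class I molecules, 11 had H2AK119ub and 0 had H3K27me3, against 57.2% and 24.7% of all protein-coding genes. Among them Tap1 and Tap2, the peptide transporter, and Psmb8 and Psmb9, immunoproteasome subunits, lie between H2-DMb1 and H2-Ob inside the class II block, in 1 H2AK119ub region of 49.6 kb. Nlrc5, the coactivator of class I genes, had a 63.2 kb region, Psmb10 22.3 kb, and B2m, which encodes beta-2 microglobulin, had neither mark. Of 12 genes for class II control and loading, 10 had H2AK119ub and 1 had H3K27me3. That gene was Ciita, with a 21.9 kb H2AK119ub region at one end and a 4.99 kb H3K27me3 region at the other. H2AK119ub covered 54.0% of Ciita and H3K27me3 39.1%, so both marks also lay in further regions inside the gene. Cd74, the invariant chain, had a 15.3 kb H2AK119ub region and no H3K27me3 at its ends. Among the genes of this list with H2AK119ub alone, the widest regions were at Ctsd (146 kb), Ifi30 (39.9 kb), Rfxank (31.9 kb) and Ctsl (20.2 kb). Of 12 genes of interferon signalling, 8 had H2AK119ub, a share near the 57.2% of all genes, and 0 had H3K27me3, against 24.7%. The widest H2AK119ub regions of this list were at Socs1 (108 kb), Irf1 (39.8 kb), Ifnar2 (38.1 kb), Irf9 (31.4 kb), Ifngr2 (30.6 kb) and Jak1 (7.72 kb).

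Neighbours and relatives of the members were counted in the same way, against the same 57.2% and 24.7% of all genes. Of 51 genes of the class III region between H2-Eb2 and H2-D1, 47 had H2AK119ub and 6 had H3K27me3. These 6 were Notch4 (20.02 kb), Ddx39b (12.7 kb), Cfb and C2 (3.41 kb, shared), Prrt1 (2.599 kb) and the lymphotoxin gene Ltb (2.23 kb). Of 8 butyrophilin genes, relatives of the B7 costimulatory family, 4 had H2AK119ub and 7 had H3K27me3. Btnl2, Btnl1, Btnl4 and Btnl6 lie between H2-Eb2 and the class III genes and all had H3K27me3. Btnl2 shares the 40.5 kb region of H2-Eb2, and Btnl2, Btnl4 and Btnl6 had no H2AK119ub at their ends. Elsewhere Btn2a2 and Btnl10 had both marks, and Btnl9 had H3K27me3 alone. Of 13 class I-like genes elsewhere in the genome, 7 had H2AK119ub and 4 had H3K27me3, both near the shares of all genes. The 4 were H60b (16.5 kb), Raet1e (14.3 kb), Procr (11.8 kb) and Fcgrt (3.55 kb).

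Markers of basal keratinocytes, for which the RFP(high) and GFP(-) gate selects, and of Langerhans and T cells, which it should leave out, were read against the same 57.2% and 24.7%. H2AK119ub was at 9 of 10 basal keratinocyte genes and H3K27me3 at 1, Dst. Of 10 Langerhans cell genes, 8 had H2AK119ub and 2 had H3K27me3, a share near that of all genes. The 2 were Cd207 (158 kb) and Irf8 (34.7 kb). Of 8 T cell genes, 6 and 4 had the marks, with H3K27me3 at Cd3d and Cd3g (20.7 kb, shared), Il2rb (15.8 kb) and Cd3e (13.6 kb). These lists do not measure how many of each cell the sort held, and any share of Langerhans cells, which carry class II proteins, was not measured.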

How the data were processed

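Per the file headers, the deposited lists give each region as positions only, 1 list for each mark, so the 2 libraries of a mark are not separated. The submitters' processing notes name Bowtie2 2.3.3.1, SAMtools 1.9 and mm10. The peak caller, its thresholds and its use of the input, which decide how many regions are listed and how wide they are, are not stated. Libraries were single reads of 75 nt from 5 ng of DNA, per the labels' protocols.

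Starts were read as counted from 0. Genes came from the RefSeq table of GRCm38.p6, in which rows listed after the Y chromosome lie on other sequences. Annotated starts and strand came from the RefSeq promoter table, which held 32 of the 35 placed members and not H2-Ab1, H2-Q1 or H2-T24. Classes were taken from symbols. Overlap was at least 1 bp. Every member is named, and from related lists the genes with H3K27me3 and up to 6 others with the widest regions. Members and lists were chosen with earlier results of these data known. List symbols without a placed protein-coding row were left out. Counts carry no test. The X box variant and the printed stretches were chosen after the sequences were seen. Overlap functions were tested on simulated data with 0 errors. Python 3.11.15, numpy 2.4.6, pandas 2.3.3 and scipy 1.17.1 were used.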

Additional observations from a re-analysis of the deposited data

How the results depend on the processing

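Of 80 alternative values for 20 results, 71 kept within the limits set for them and 9 moved. The limits were wide: a ratio of 1.5 for counts and coverage, and the 95% interval of the main value for shares and differences. Values within them could still fall. Without the M genes, class II minus class I went from 56.9 to 35.0 points for H2AK119ub and from 60.9 to 42.7 for H3K27me3. Class II genes with H2AK119ub went from 8 to 6 at annotated starts. The count of class II genes with H3K27me3, 8 with a window of 1 kb, was 5 with a window of 0 bp, 4 with the mark required at both ends and 4 at annotated starts, where H2-Ab1 has no start in the table. The count of all placed members with H3K27me3 was 9 with the mark at both ends, against 15. Keeping regions of at least 5 kb lowered coverage of the T block to 2.80% for H2AK119ub and 2.89% for H3K27me3. The background share of H2AK119ub was 59.8% on chromosome 17, and that of H3K27me3 was 22.2% on autosomes and 19.2% on chromosome 17. No count for class I genes moved by over 1.5 times. No paired analysis was possible because the lists do not separate replicates, and for the same reason no replicate could be left out. Depth is unknown, so an unmarked gene cannot be told from one below the calling threshold.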

Other observations

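The H2- pseudogenes, which the counts above leave out, also differed along the chromosome. Of 11 on chromosome 17, 7 had both marks within 1 kb of an end and 4 had neither, against 21.1% and 39.2% of all protein-coding genes. H2-Pb and H2-Pa, beside H2-Oa, and H2-Ea, the I-E alpha chain gene that is listed as a transcribed pseudogene in the reference strain, were wholly inside regions of both marks. H2-Ea lay in the 40.5 kb H3K27me3 region that also covers H2-Eb2. H2-K2, next to H2-K1, was wholly inside a 10.7 kb H3K27me3 region and covered to 37.7% by H2AK119ub, whereas H2-K1 had neither mark. H2-Bl, among the T genes, had a 2.03 kb H2AK119ub and a 4.45 kb H3K27me3 region at one end. H2-Q3 and H2-M4-ps also had both marks at an end, and H2-Q5, H2-T10, H2-M10.5-ps1 and H2-M6-ps had neither.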
